A study of Homo sapiens with 208 samples.

Results

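The genes followed here were 8 chemokines, the CXC chemokines CXCL1, CXCL2, CXCL3, CXCL5, CXCL6 and CXCL8 and the CC chemokines CCL20 and CCL2. They were found on the array through the RefSeq accession that each probe carries, which gave 11 probes for the 8 genes out of 16961 genes with a probe. The arrays came from PC9, a human lung adenocarcinoma line whose EGFR gene carries an activating deletion, and from PC9GRM2 (PC9M2 in the study's text), a gefitinib-resistant line taken from 1 clone that came through repeated selection of PC9 with the drug. Cells of both lines were first starved for 48 h. They were then left untreated, given 0.5 µM gefitinib (an inhibitor of the EGFR kinase) from -2 h, given 100 ng/ml EGF (the ligand of EGFR) from 0 h, or given both agents. RNA was sampled at 0 h, at 0.5 h and hourly from 1 h to 24 h, which made 26 time points in each of 8 courses, with 1 array per point and no replicate arrays. The labels therefore had no untreated sample outside starvation, and cells under gefitinib had been exposed to it for 2 h at the first time point.

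Chemokines are small secreted proteins that direct the migration of leukocytes. CXCL1, CXCL2, CXCL3, CXCL5, CXCL6 and CXCL8 (interleukin 8) carry the tripeptide glutamate-leucine-arginine ahead of their first cysteines, bind CXCR1 or CXCR2 and attract neutrophils, while CCL20 acts through CCR6 on lymphocytes and dendritic cells and CCL2 acts through CCR2 on monocytes. Epithelial cells make them after stimulation by interleukin 1, tumour necrosis factor or growth factors, through NF-κB, AP-1 and C/EBP factors at the promoter and through the stability of the AU-rich mRNA.

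The promoters of the CXC members hold a common element. The sequences are RefSeq's for GRCh38.p14 and cover the 150 bases before the start site, read on the gene's strand, and the capitals mark GGAATTTCC, a κB element. CXCL1 (chr4:73869243-73869392, plus strand), CXCL2 (chr4:74099196-74099345, minus strand) and CXCL8 (chr4:73740419-73740568, plus strand) are shown because they carried the results, CXCL3 (chr4:74038690-74038839, minus strand) because it resembles CXCL1, and CCL20 (chr2:227813692-227813841, plus strand) because its window lacks the element.
CXCL1: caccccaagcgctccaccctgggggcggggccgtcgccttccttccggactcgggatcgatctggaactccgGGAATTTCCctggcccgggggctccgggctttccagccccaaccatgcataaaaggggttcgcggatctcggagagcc
CXCL2: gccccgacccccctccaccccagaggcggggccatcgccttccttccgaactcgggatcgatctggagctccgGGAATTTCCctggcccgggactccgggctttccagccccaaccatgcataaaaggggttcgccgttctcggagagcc
CXCL3: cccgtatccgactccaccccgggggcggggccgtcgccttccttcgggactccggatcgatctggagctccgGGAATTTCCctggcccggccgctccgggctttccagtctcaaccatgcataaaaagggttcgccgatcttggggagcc
CXCL8: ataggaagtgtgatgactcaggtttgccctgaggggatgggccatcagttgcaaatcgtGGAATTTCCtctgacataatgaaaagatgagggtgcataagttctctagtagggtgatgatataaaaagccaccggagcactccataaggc
CCL20: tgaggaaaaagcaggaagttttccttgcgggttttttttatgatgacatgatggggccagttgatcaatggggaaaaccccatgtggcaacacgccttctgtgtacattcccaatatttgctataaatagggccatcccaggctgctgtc

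GGAATTTCC was searched on both strands of 35116 RefSeq promoter windows of 300 bases (250 before and 50 after the start) and was in 0.461% of them. It was in 6 of the 7 member windows (all but that of CCL20), beginning 78 bases before the start in CXCL1 and CXCL3, 77 in CXCL2, 90 in CXCL5, 89 in CXCL6 and 91 in CXCL8. The AP-1 letters TGANTCA, which 7.71% of all windows hold, were in the window of CXCL8 alone, 137 bases before the start. The C/EBP letters TTGCNNAA (10.5% of all windows) were in that of CXCL2 alone, and TATAAA (11.5%) was in those of CXCL8 and CCL20. Over 120 bases around the κB element CXCL1 was identical to CXCL3 at 92.5% of the positions and to CXCL2 at 75.8%, against 31.7% for CXCL8, and CXCL5 was identical to CXCL6 at 90%. A match of letters is a description and not a bound site. An element that departs from the searched letters is missed, so that a window without them may still hold one. Probes for such close paralogs can take up each other's RNA, and this was not tested.

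The values are scanner intensities on the log2 scale after quantile normalization over the 208 arrays, so that a difference of 1 is 2-fold. A probe is called well above background as the scanner software marked it, and a gene was tested where its most variable probe had this mark on 13 or more of a course's 26 arrays, which kept 13261 of 16961 genes. The number of features with this mark ran from 24755 to 36332 per array (median 30235.5). All 8 epithelial markers (EPCAM and CDH1 among them) were so on all 208 arrays. Of the lung lineage markers NAPSA was so on 207 arrays, SFTPB on 89 and NKX2-1 on 13. Of the leukocyte markers PTPRC and FCGR3B were so on 1 array each, while CD14, ITGAM and ITGB2 were so on 208, and none of the 5 fibroblast markers with a probe was tested. The arrays of PC9 and PC9GRM2 shared no slide and no scan day, so that batch and line cannot be told apart, and each treatment always had the same position on the slide, so that position and treatment cannot be told apart. Differences between courses were taken at matched time points and averaged, with time points in the place of replicates. Neighbouring time points are not independent and no separate cultures are stated, so the p-values measure only the spread between time points.

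Some arrays went against their labels or stood apart. DUSP6, an ERK phosphatase that ERK signaling induces, was at 7.75 on the PC9GRM2 array labelled EGF at 0.5 h and at 12.53 on the array labelled EGF and gefitinib at 0.5 h. At 1 h the same courses had 12.61 and 7.84. The untreated PC9GRM2 array at 11 h deviated from its neighbours in time by an SD of 1.03 over genes, against a median of 0.40 over all arrays and 0.87 for the next highest. Chemokine differences that moved without these arrays are given with and without them.

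By their most variable probe CXCL1, CXCL2 and CXCL8 were tested and the other members were not, and CXCL1 was well above background on all 26 arrays of all 8 courses. CXCL2 passed on 24 untreated and 26 EGF arrays of PC9 but on 9 arrays of each gefitinib course, and on 23, 24, 4 and 5 arrays of PC9GRM2 (untreated, EGF, gefitinib, both). CXCL8 passed on 24 untreated and 26 EGF arrays of PC9, on 7 and 9 of PC9GRM2, and on 0 of 26 in each of the 4 gefitinib courses. The most variable probes of CXCL3, CXCL5 and CXCL6 passed on 33, 5 and 1 of 208 arrays. CCL20 and CCL2 passed on none. CXCL2 thus reached the 13 arrays that testing needed only in courses without gefitinib, and CXCL8 only in those of PC9, where they were high. Counts of called members under gefitinib or between the lines therefore describe these genes and support nothing about the family. No member value was saturated, though the PC9 arrays had 221 to 1702 saturated features each and those of PC9GRM2 had 0.

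**Figure D1:**
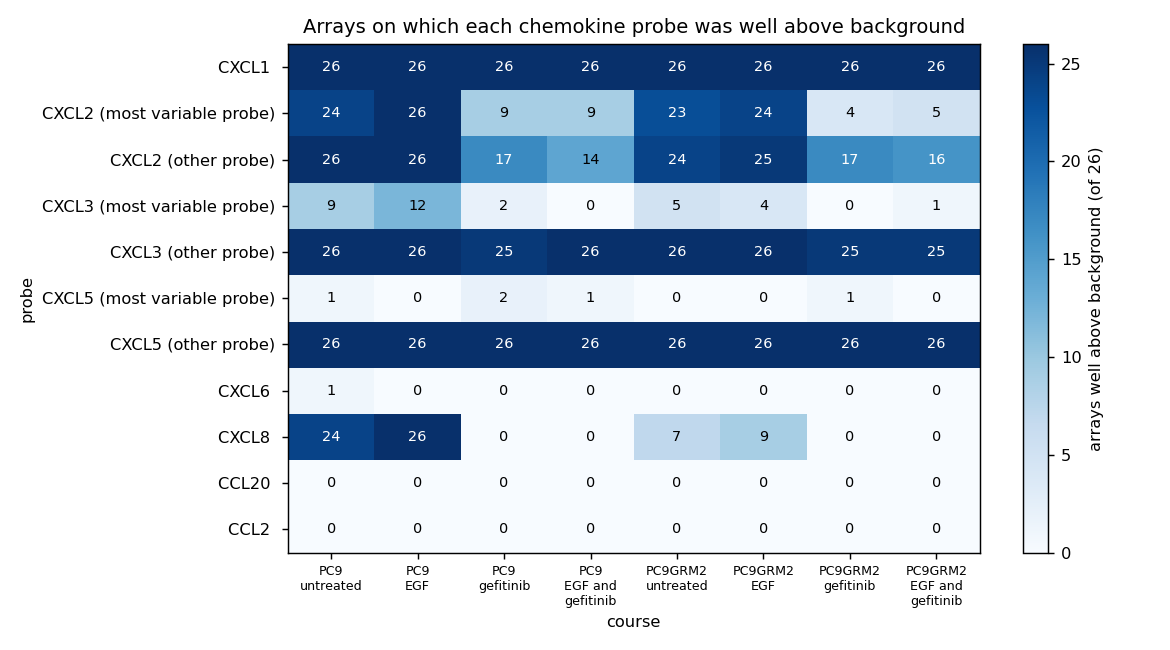
Number of arrays (of 26, colour and figures) on which each chemokine probe was well above background, by probe (rows) and course (columns). CXCL1 reached 26 in every course, CXCL8 reached 24 and 26 in PC9 without gefitinib and 0 in the gefitinib courses, and CCL20 and CCL2 stayed at 0.

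Gefitinib lowered all 3 tested members in PC9, the parental line. CXCL1, whose product is a CXCR2 ligand, had a lowest value of 8.54 (0 h), a median of 10.35 and a highest of 11.52 (19 h) over the untreated course, and 5.30 (23 h), 6.85 and 8.62 (4 h) under gefitinib. The courses met only at the start, where the lowest untreated value lay just under the highest value under gefitinib. At 0 h, after 2 h of drug, the difference was -0.13, and at 23 h it was -6.19. CXCL1 was lower at 26 of 26 time points, with a mean difference of -3.22 (SE 0.333, adjusted p = 1.55e-09 by limma with Benjamini-Hochberg adjustment), or 9.34-fold. Fewer expressing cells and less RNA per cell cannot be told apart in these bulk samples.

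CXCL2, a close paralog of CXCL1, had 5.75 (0 h), 6.53 and 7.33 (23 h) as its lowest, median and highest value in untreated PC9 and 2.79 (17 h), 4.18 and 5.36 (1 h) under gefitinib. These courses did not overlap, but CXCL2 was tested only because it was high without gefitinib. No share of all tested genes is given for overlap. The mean difference was -2.38 (SE 0.173, limma adjusted p = 1.73e-12). Only 9 of the 26 gefitinib arrays measured CXCL2 above background, so that the size depends on the background, and the other probe (17 of 26) gave -1.92. CXCL8 is interleukin 8, the best known neutrophil attractant of the family. It had 3.83 (0.5 h), 6.32 and 8.87 (21 h) without treatment and 1.91 (14 h), 2.12 and 2.42 (2 h) under gefitinib. The same limit holds for its lack of overlap, since it was tested only because it was high in PC9 without gefitinib. The CXCL8 probe was not well above background on any gefitinib array of PC9, so its fold is a bound. With means of 6.23 and 2.13, the limma difference was -4.10 (SE 0.298, adjusted p = 1.63e-12). Against the lowest signal well above background on each array CXCL8 was at least 5.03-fold lower under gefitinib, and at least 9.51-fold lower from 13 h to 24 h. CXCL1, CXCL2 and CXCL8 were called lower, beside 37.4% of all tested genes (72.2% in either direction). With a normexp background correction that adds 50 to each intensity, which shrinks differences of dim probes, the PC9 differences were -2.06, -0.39 and -0.58, all still called.

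**Figure D2:**
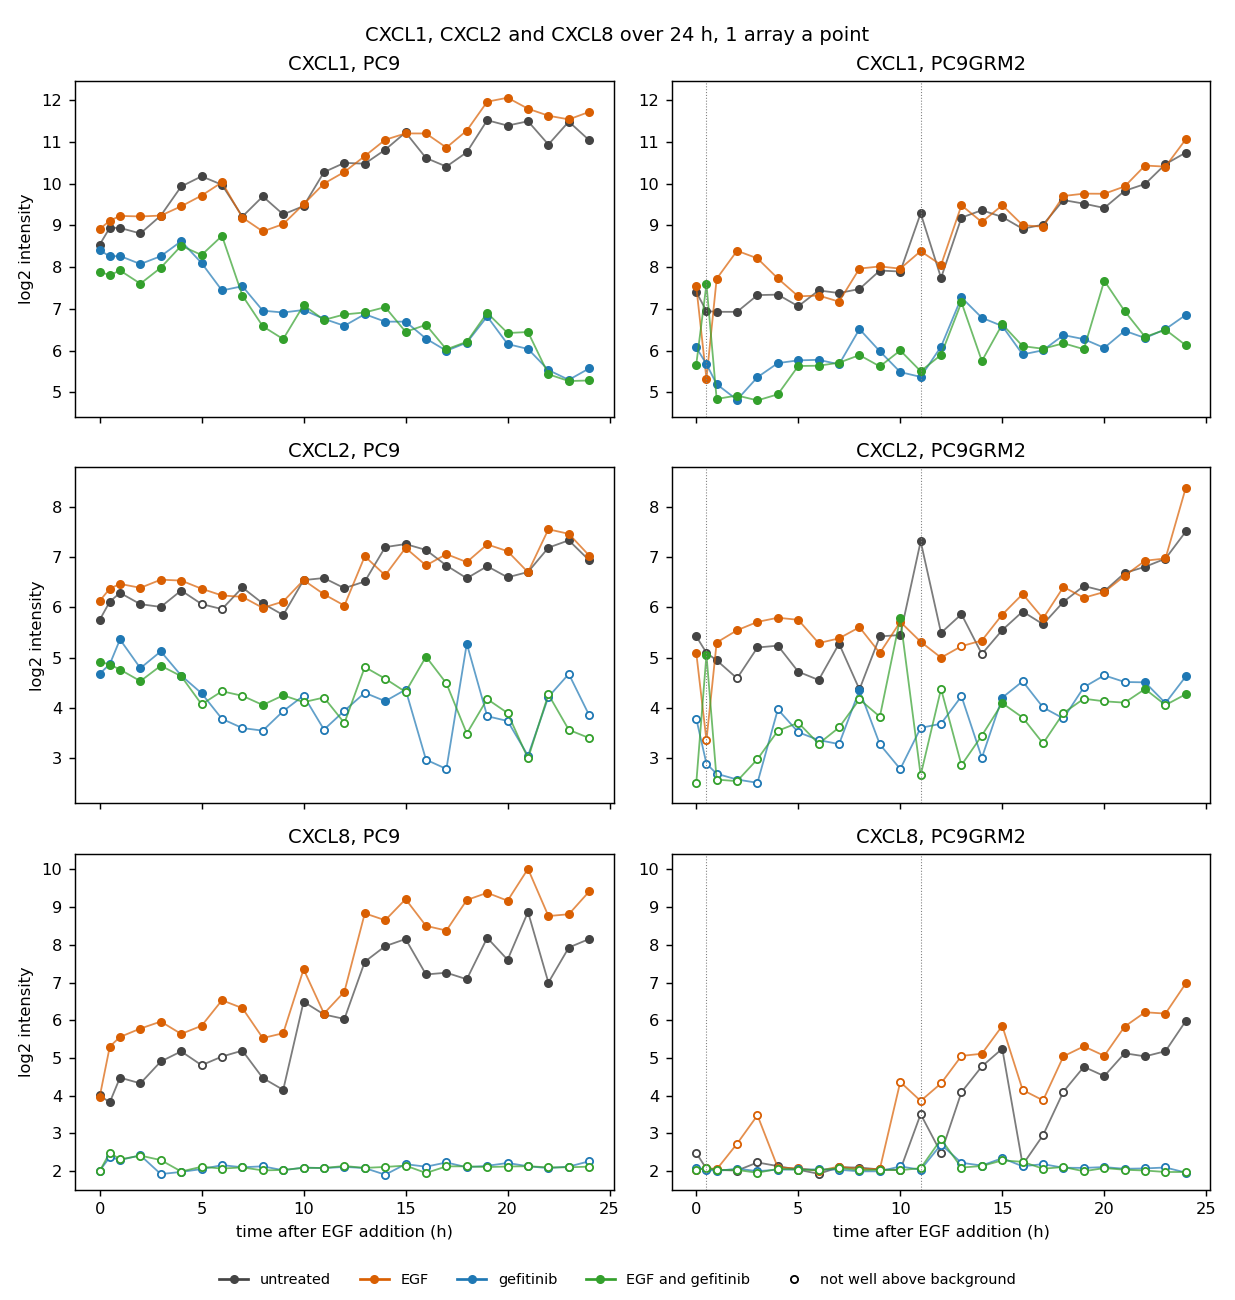
Log2 intensity of CXCL1, CXCL2 and CXCL8 (rows) against hours after EGF addition in PC9 and PC9GRM2 (columns), 1 array per point, with each treatment in its own colour and open symbols where the probe was not well above background. In PC9 CXCL1 without gefitinib climbed from about its lowest value of 8.54 to 11.52 at 19 h while the gefitinib course ended at 5.58 at 24 h. Dotted lines mark 0.5 h, where the EGF arrays of PC9GRM2 with and without gefitinib went against their labels, and 11 h, where the untreated array stood apart.

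In PC9GRM2 gefitinib lowered the same 3 genes. CXCL1 had 6.93 (2 h), 8.42 and 10.75 (24 h) without treatment and 4.82 (2 h), 6.04 and 7.28 (13 h) under gefitinib. The ranges overlapped, but at matched time points CXCL1 was lower at 26 of 26, by a mean of -2.44 (SE 0.174, limma adjusted p = 1.72e-12), or 5.43-fold. CXCL2 had 4.37 (8 h), 5.47 and 7.51 (24 h) against 2.51 (3 h), 3.79 and 4.65 (20 h). It too was lower at 26 of 26 time points, with a mean difference of -1.96 (SE 0.135, limma adjusted p = 7.78e-13), and the smallest gap was -0.01 at 8 h. Its size depends on the background, since 4 of the 26 gefitinib arrays measured CXCL2, and the other probe (17 of 26) gave -1.07.

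CXCL8 had 1.93 (6 h), 2.48 and 5.98 (24 h) in untreated PC9GRM2 and 1.96 (24 h), 2.07 and 2.71 (12 h) under gefitinib. Only 7 of the 26 untreated arrays were well above background, all of them from 13 h on, so that the early part of both courses lay in the background. The mean difference was -1.17 (SE 0.255, limma adjusted p = 2e-04), lower at 21 of 26 time points. No fold over the whole course can be given, since the untreated mean of 3.28 is under the bound set by the background. CXCL1, CXCL2 and CXCL8 were called lower, beside 34.0% of all tested genes in PC9GRM2 (66.5% in either direction). Within scan days the CXCL1 and CXCL2 differences were negative on 8 of 8 days in PC9 and 9 of 9 in PC9GRM2, and those of CXCL8 on 8 of 8 and 8 of 9. Without the 11 h time point the PC9GRM2 differences were -2.38, -1.90 and -1.16, and with the normexp correction they were -1.14, -0.17 and -0.11, also called.

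Gefitinib also lowered the 3 genes where EGF was present in both courses. In PC9 the gefitinib difference with EGF was -3.39 for CXCL1 (SE 0.348, limma adjusted p = 9.93e-10), -2.40 for CXCL2 (SE 0.141, adjusted p = 1.88e-14) and -5.20 for CXCL8 (SE 0.327, adjusted p = 7.1e-14). The CXCL8 means were 7.33 and 2.13, which is at least 10.3-fold lower over the course and at least 21.5-fold lower from 13 h on. In PC9GRM2 the differences were -2.62, -2.04 and -1.83 (limma adjusted p = 2.43e-10, 1.03e-09 and 4.6e-06). CXCL8 was well above background there on 9 EGF arrays and on 0 with both agents. No fold over that course can be given, and from 13 h on it was at least 2.16-fold lower. CXCL2 was so on 9 arrays of PC9 and 5 of PC9GRM2 with both agents, and its other probe gave -2.22 and -0.97. With the normexp correction the PC9GRM2 differences were -1.23, -0.13 and -0.16, all still called. CXCL1, CXCL2 and CXCL8 were called lower in both lines, beside 40.0% and 38.0% of all tested genes. The arrays labelled EGF and EGF with gefitinib at 0.5 h ran the opposite way in PC9GRM2, by 2.27 for CXCL1 and 1.70 for CXCL2. Without that time point the PC9GRM2 differences were -2.81, -2.19 and -1.90.

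The gefitinib difference of CXCL1 widened with time in both lines. Mean differences were fitted for an early window of 0 h to 4 h, a middle window of 5 h to 12 h and a late window of 13 h to 24 h. In PC9 CXCL1 went from -0.75 (SE 0.26) through -2.66 (SE 0.226) to -4.83 (SE 0.184), and late minus early was -4.08 (limma adjusted p = 1.26e-10). CXCL2 went from -1.18 through -2.37 to -2.99, with a late minus early of -1.81 (adjusted p = 7.07e-06), and CXCL8 from -2.29 through -3.20 to -5.61, with -3.33 (adjusted p = 3.52e-09). CXCL1 and CXCL2 were called lower in late minus early, beside 25.8% of all tested genes. Since CXCL8 lay in the background under gefitinib at all times, its change between windows restates the rise of the untreated course, and that of CXCL2 depends on the background. The early difference of CXCL1 was not called when each array was scaled to its 75th percentile (adjusted p = 0.0508) or when the window ended at 3 h (0.167), and that of CXCL8 was not with the normexp correction (-0.14, adjusted p = 0.306).

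In PC9GRM2 the windows of CXCL1 had -1.68, -1.94 and -3.15, and late minus early was -1.48 (SE 0.315, limma adjusted p = 0.000481). CXCL2 had nearly 1 level throughout, with -2.01, -1.84 and -2.02, and a late minus early of -0.01 (SE 0.351, adjusted p = 0.98). Only 4 of the 26 gefitinib arrays measured CXCL2 above background, 1 of them up to 12 h, so that this level depends on the background. CXCL8 had -0.12 and -0.16 while both courses lay in the background, then -2.37 in the late window, and late minus early was -2.25 (adjusted p = 3.62e-05). CXCL1 was called lower in late minus early, beside 19.2% of all tested genes, and the change of CXCL8 again restates the untreated course. With the normexp correction the early and middle differences of CXCL2 were not called in PC9GRM2 (adjusted p = 0.173 and 0.0785).

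Genes that answer directly to ERK signaling were set beside the chemokines. DUSP6 differed by -4.54, -7.06 and -7.78 over the 3 windows in PC9 and by -3.98, -1.67 and -1.59 in PC9GRM2, where late minus early was 2.39 (limma adjusted p = 1.41e-08). SPRY4, a feedback inhibitor of the pathway, differed by -4.85, -5.65 and -4.64 in PC9 (late minus early 0.21, adjusted p = 0.535) and by -3.73, -1.08 and -0.91 in PC9GRM2 (late minus early 2.82, adjusted p = 1.35e-07). FOSL1, a subunit of AP-1, stood at -3.07, -2.48 and -2.80 in PC9GRM2 (late minus early 0.27, adjusted p = 0.548). Of the 17 tested genes of the AP-1 and ERK feedback list, 10 were called higher and 1 lower in late minus early in PC9GRM2, and 2 and 7 in PC9, against 19.7% of all tested genes higher and 19.2% lower in PC9GRM2 and 26.6% and 25.8% in PC9. The DUSP6 difference thus widened with time in PC9 (late minus early -3.24, adjusted p = 7.29e-09), as that of CXCL1 did, and narrowed in PC9GRM2, where CXCL1 widened. The contrast between the chemokines and this list was not itself tested.

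**Figure D3:**
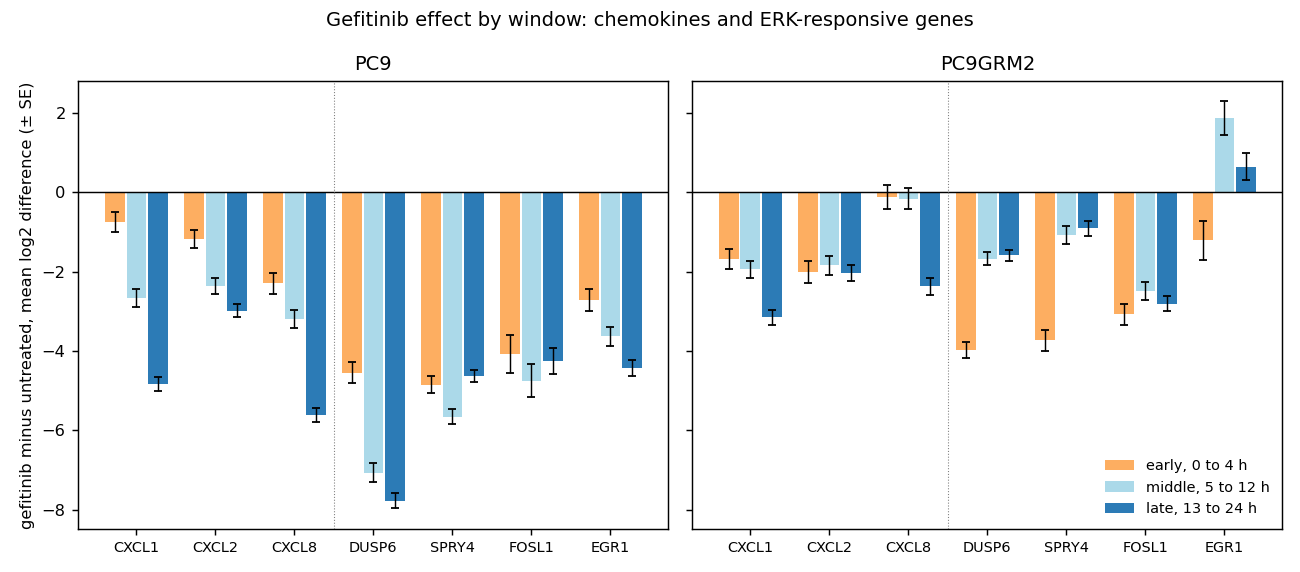
Gefitinib minus untreated, mean log2 difference (bars, from 0) with its SE, in the early, middle and late windows for CXCL1, CXCL2, CXCL8 and, right of the dotted line, the ERK-responsive genes DUSP6, SPRY4, FOSL1 and EGR1, in PC9 and PC9GRM2. In PC9GRM2 the bar of DUSP6 shrinks from -3.98 to -1.59 and that of CXCL1 grows from -1.68 to -3.15.

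Over the whole course EGF raised CXCL8 and made no called difference in CXCL1 and CXCL2. In PC9 CXCL8 had 3.96 (0 h), 7.05 and 10.01 (21 h) as its lowest, median and highest value with EGF. That course overlapped the untreated one in range, but lay above it at 25 of 26 time points, the exception being 0 h, the hour of EGF addition (-0.05). The mean difference was 1.10 (SE 0.09, limma adjusted p = 1.65e-09), or 2.15-fold. CXCL1 with EGF had 8.86 (8 h), 10.16 and 12.06 (20 h) and differed by 0.14 (SE 0.075, adjusted p = 0.183), and CXCL2 had 5.99 (8 h), 6.55 and 7.55 (22 h) and differed by 0.13 (SE 0.057, adjusted p = 0.0939). Thus 1 of 3 tested members was called higher, beside 11.3% of all tested genes (25.6% in either direction). The CXCL8 call depends on the pairing by time, since with the courses unpaired its adjusted p was 0.235, and with the normexp correction its difference was 0.43 (adjusted p = 1.5e-05).

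The EGF difference of CXCL8 in PC9 was 1.10, 0.98 and 1.28 in the early (here 0.5 h to 4 h), middle and late windows, all called (limma adjusted p = 0.00145, 4.37e-05 and 1.15e-08), beside 0.475%, 4.77% and 9.40% of all tested genes called higher. CXCL1 was called higher in the late window (0.40, SE 0.082, adjusted p = 0.000754), with -0.24 in the middle one (adjusted p = 0.14). With the normexp correction CXCL8 was not called in the early and middle windows (adjusted p = 0.798 and 0.0603).

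In PC9GRM2 CXCL8 had 2.01 (6 h), 4.01 and 6.98 (24 h) with EGF, higher than untreated at 23 of 26 time points, with a mean difference of 0.65 (SE 0.129, limma adjusted p = 0.00124), beside 4.16% of all tested genes called higher (9.07% in either direction). Since the probe was well above background on 9 and 7 arrays of these courses, all from 13 h on, this rests on the late window, where the difference was 0.89 (adjusted p = 0.00362, beside 1.89% of all tested genes called higher). The call over the whole course was lost with the courses unpaired (adjusted p = 1) and with time points 3 h apart only (adjusted p = 0.178), and the difference was 0.06 with the normexp correction (adjusted p = 0.0158). CXCL1 with EGF had 5.32 (0.5 h), 8.39 and 11.07 (24 h) and differed by 0.15 (SE 0.105, adjusted p = 0.452), and CXCL2 had 3.36 (0.5 h), 5.71 and 8.38 (24 h) and differed by 0.09 (SE 0.139, adjusted p = 0.774). Without 0.5 h these were 0.22 and 0.16, and without 11 h 0.19 and 0.17, none of them called. The lowest values of both are those of the 0.5 h array that went against its label. In the early window CXCL1 differed by 0.38 (adjusted p = 0.639) with that time point and by 0.88 (SE 0.164, adjusted p = 0.00393) without it. The difference of the EGF differences between the lines was -0.45 for CXCL8 (SE 0.143, adjusted p = 0.12), and 0 of 3 tested members were called by limma there, beside 1.34% of all tested genes. The unadjusted limma p of CXCL8 there was 0.00359. CXCL8 was called with the normexp correction (-0.37) and with intensities floored at 16 (-0.77).

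With gefitinib in both courses EGF made no called difference. In PC9 it was -0.03 for CXCL1 (95% interval -0.18 to 0.13), 0.11 for CXCL2 (-0.18 to 0.40) and 0.00 for CXCL8, and in PC9GRM2 -0.03, 0.01 and -0.01. CXCL8 was in the background in all 4 of these courses, so that its values set no limit on a response. CXCL2 was well above background on 9 of 26 arrays of each such PC9 course. In PC9GRM2 it was so on 5 arrays with both agents and 4 with gefitinib alone. Its differences and interval here therefore depend on the background. By limma 0 of 3 tested members were called, beside 0.0452% and 3.11% of all tested genes at the adjusted threshold. None passed at an unadjusted p under 0.05 either, for which no share of all tested genes is given. The change of the EGF difference brought by gefitinib was not called for CXCL1 and CXCL2, beside 13.2% and 10.1% of all tested genes called in either direction. For CXCL8 it could only restate the EGF difference with its sign turned, since its courses under gefitinib were in the background, so whether gefitinib changed its response to EGF was not testable here. Without the 0.5 h time point the PC9GRM2 differences of CXCL1 and CXCL2 were -0.11 (SE 0.099) and -0.08 (SE 0.159), also not called.

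Untreated PC9GRM2 cells had less of all 3 transcripts than PC9. CXCL1 was lower at 26 of 26 time points, by a mean of -1.72 (SE 0.122, limma adjusted p = 3.54e-13), or 3.3-fold. The differences ran from -3.11 at 5 h to -0.29 at 24 h. CXCL2 was lower at 24 of 26, by -0.83 (SE 0.13, adjusted p = 2.18e-06), or 1.77-fold, with 24 and 23 of 26 arrays measured in PC9 and PC9GRM2. CXCL8 was lower at 26 of 26, by -2.96 (SE 0.156, adjusted p = 3.84e-16), with 7 of 26 arrays of PC9GRM2 well above background, and it was tested only because it was high in PC9. Over the alternative settings the differences ran from -1.75 to -1.27 for CXCL1, -0.945 to -0.25 for CXCL2 and -2.97 to -0.48 for CXCL8. CXCL1, CXCL2 and CXCL8 were called lower, beside 37.8% of all tested genes (68.1% in either direction). With EGF the differences were -1.71, -0.87 and -3.41, all called lower beside 37.7% of all tested genes, though that of CXCL2 was not with time points 3 h apart (adjusted p = 0.0668).

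Under gefitinib CXCL1 was again lower in PC9GRM2, by -0.94 (SE 0.257, limma adjusted p = 0.00211), but in a changing way. It was -3.25 at 2 h and 1.28 at 24 h, lower at 18 of 26 time points and higher at 8. CXCL2 differed by -0.41 (SE 0.222, adjusted p = 0.104) and CXCL8 by -0.02, with both courses in the background. So 1 of 3 tested members was called lower, beside 34.8% of all tested genes. With both agents CXCL1 differed by -0.94 (adjusted p = 0.00283) and CXCL2 by -0.51 (adjusted p = 0.0277), which makes 2 of 3 beside 37.1%. The CXCL1 calls were lost with time points 3 h apart (adjusted p = 0.152 under gefitinib, 0.0881 with both agents) and with the variance inflated for autocorrelation (0.0792 and 0.118). That of CXCL2 was lost in both of these settings, with scan day as a random block, 75th percentile scaling, the mean of both probes and the floor of 16, with adjusted p between 0.0656 and 0.488, and its sign turned with the normexp correction (0.02) and with the other probe (0.14). These 4 comparisons of the lines use different arrays, and batch and line cannot be told apart in any of them.

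The gefitinib difference itself was smaller in PC9GRM2 than in PC9 for CXCL1, by 0.78 (SE 0.219, limma adjusted p = 0.00644), with 18 of 26 time points in that direction. That call was lost with the courses unpaired (adjusted p = 0.142) and with time points 3 h apart (0.143). For CXCL8 the corresponding value of 2.93 restates the untreated line difference, since both gefitinib courses lay in the background. For CXCL2 the difference of 0.42 (SE 0.22, adjusted p = 0.151) was not called with the most variable probe, and was 0.85 (SE 0.179, adjusted p = 0.000488) with the other probe. The CXCL2 difference was also called with the mean of both probes (0.63), the floor of 16 (0.64) and the normexp correction (0.23). In the main setting this contrast was called higher for CXCL1, beside 17.5% of all tested genes. That means a smaller fall under gefitinib in PC9GRM2 and not a higher level. In the early window CXCL1 and CXCL2 stood at -1.68 and -2.01 in PC9GRM2 and at -0.75 and -1.18 in PC9. The CXCL2 sizes depend on the background.

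**Figure D4:**
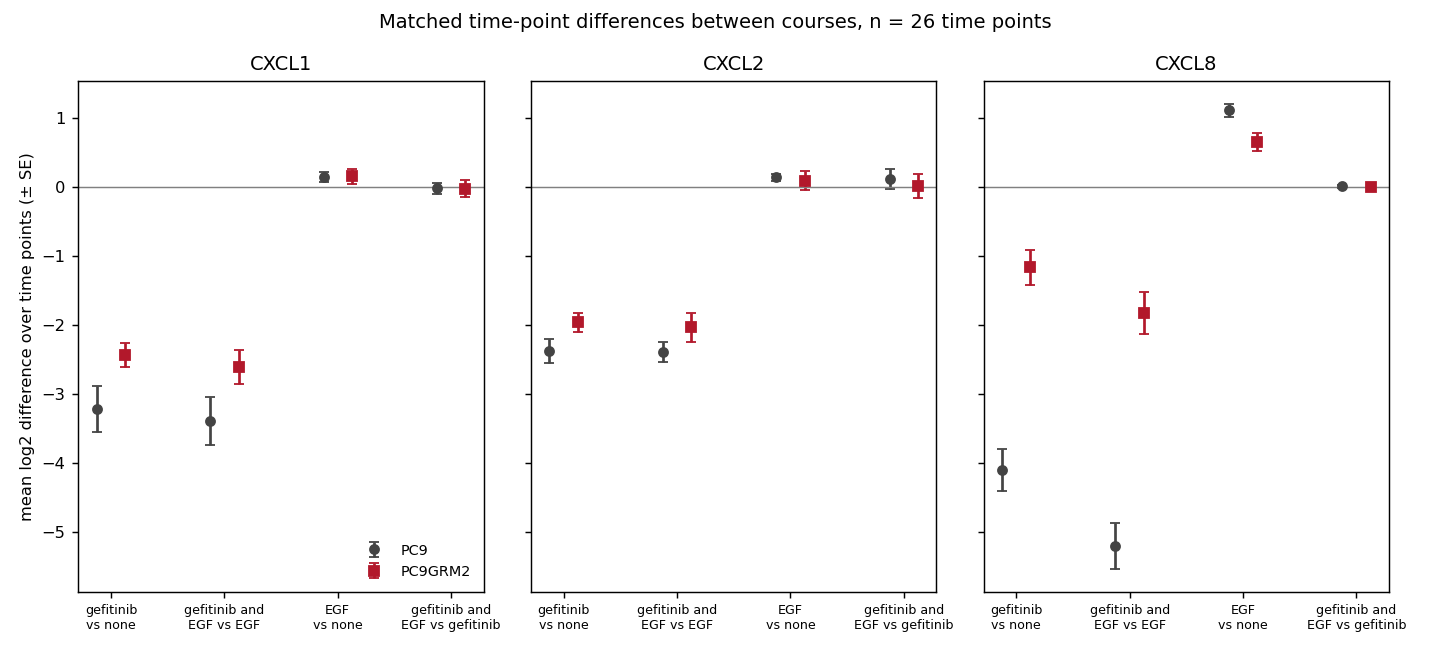
Mean log2 difference over matched time points (points) with its SE for CXCL1, CXCL2 and CXCL8, for gefitinib and EGF each alone and in the presence of the other agent, in PC9 and PC9GRM2. All gefitinib points lie below 0, from -1.17 to -5.20, and CXCL8 with EGF alone lies above 0 in both lines, at 1.10 and 0.65.

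The courses moved over time in most conditions. A natural cubic spline of time, tested with limma's F-test, gave fitted values at 24 h minus 0 h of 2.47 for CXCL1, 0.93 for CXCL2 and 3.58 for CXCL8 in untreated PC9, and of 3.43, 2.25 and 3.37 in untreated PC9GRM2, all called. With EGF they were 2.48, 0.79 and 3.99 in PC9 and 3.58, 3.04 and 4.20 in PC9GRM2, also all called. These 3 of 3 counts stand beside 66.5%, 67.5%, 78.8% and 74.9% of all tested genes. The rise in the untreated courses took place in starved cells to which nothing had been added.

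Under gefitinib the lines went opposite ways. CXCL1 fell in PC9 by 3.05 (limma adjusted p = 1.2e-11) and CXCL2 fell by 1.06 (adjusted p = 0.0325), whereas in PC9GRM2 CXCL1 rose by 1.07 (adjusted p = 0.00896) and CXCL2 rose by 1.51 (adjusted p = 0.00198). These are 2 of 3 tested members in each line, beside 77.8% and 63.7% of all tested genes. CXCL2 was well above background on 9 of 26 gefitinib arrays in PC9 and on 4 in PC9GRM2. With both agents it was so on 9 and 5. Its fitted changes in these courses therefore depend on the background. With both agents the fitted changes were -2.66 and -1.64 in PC9, both called beside 83.1%, and in PC9GRM2 0.62 for CXCL1 (adjusted p = 0.0439) and 1.34 for CXCL2 (adjusted p = 0.339), 1 of 3 called beside 67.6%. Without the 0.5 h time point CXCL2 was called too, with a fitted range of 2.15 (adjusted p = 0.014). CXCL8 was not called over time in any gefitinib course in the main setting. With 75th percentile scaling it was called under gefitinib in PC9 (limma adjusted p = 0.000639) and PC9GRM2 (0.0415). With both agents it was so in PC9 (8.69e-05). Its probe lay in the background in all of these courses. A direct test of the time courses between the lines was not run, apart from the matched differences above. With scan day as a random block the calls under gefitinib were lost in PC9GRM2 for CXCL1 (adjusted p = 0.0651) and CXCL2 (0.158), as was that of CXCL2 in PC9 (0.165), and so was that of CXCL1 with both agents in PC9GRM2 (0.286). The CXCL2 call under gefitinib in PC9 was also lost with 75th percentile scaling (limma adjusted p = 0.0547).

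CXCL3 and CXCL5 had 2 probes each that did not give the same picture. The most variable probe of CXCL3, the near copy of CXCL1 in its promoter, had medians of 3.62 in untreated PC9 and 2.30 under gefitinib and of 3.13 and 2.24 in PC9GRM2, with a difference of -1.38 (SE 0.172) and -1.12 (SE 0.231) that was not tested, because at most 12 arrays of a course were well above background. Its other probe was well above background on 205 of 208 arrays. There CXCL3 had 6.02 (23 h), 6.65 and 7.39 (18 h) as lowest, median and highest value in untreated PC9 and 4.91 (22 h), 6.11 and 7.22 (2 h) under gefitinib, and the courses overlapped. The difference was -0.58 in PC9 (SE 0.088) and -0.42 in PC9GRM2 (SE 0.114), called by limma over 19801 probes (adjusted p = 1.32e-06 and 0.0018). With EGF in both courses it was -0.68 and -0.48, and EGF alone gave 0.15 in PC9 (adjusted p = 0.0592). Untreated PC9GRM2 had less CXCL3 by this probe, at -0.71 (adjusted p = 2.97e-05).

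CXCL5, another CXCR2 ligand, gave the widest disagreement. Its most variable probe was well above background on 5 of 208 arrays, with medians between 1.91 and 1.95 in all courses and a highest value of 6.96. Its other probe was well above background on all 208, with values from 6.79 to 9.60. By that probe gefitinib made no called difference (-0.14 in PC9, adjusted p = 0.219, and 0.11 in PC9GRM2, adjusted p = 0.228, limma over 19801 probes), and untreated PC9GRM2 stood below PC9 by -0.82 (SE 0.086, adjusted p = 1.64e-09), lower at 25 of 26 time points. Whether both probes report the same transcript was not tested.

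**Figure D5:**
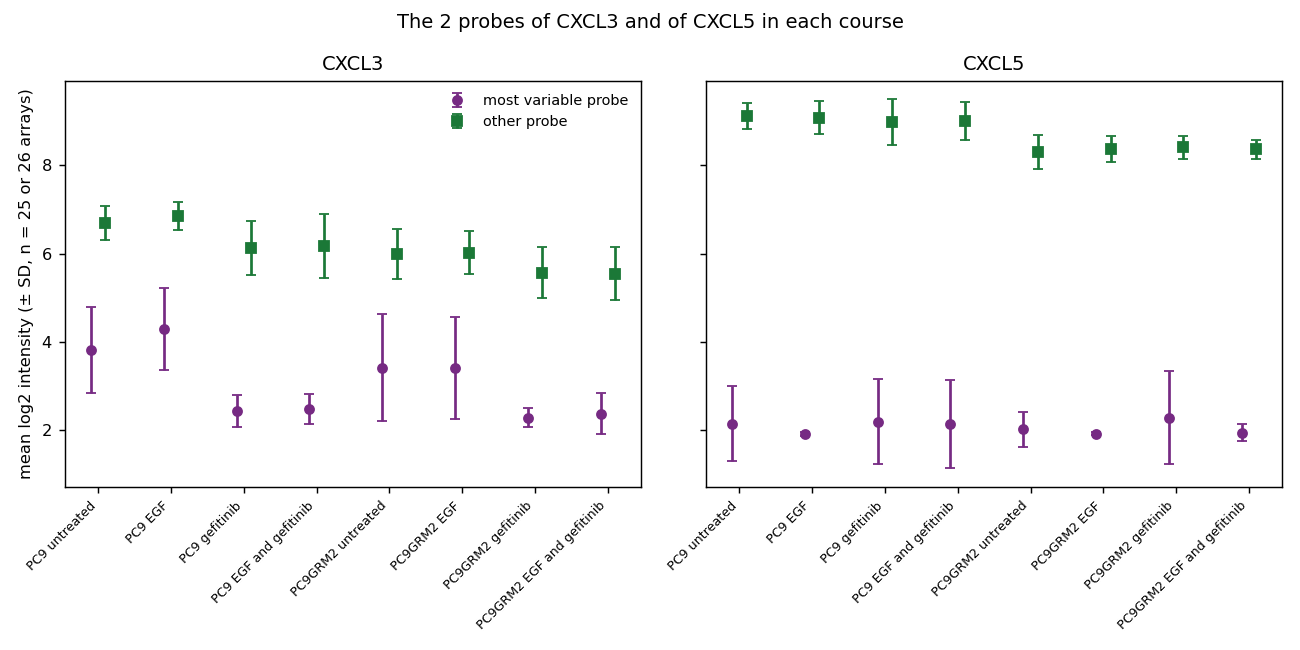
Mean log2 intensity with SD over the arrays of each of the 8 courses for both probes of CXCL3 and of CXCL5. The most variable probe of CXCL5 sits near 2 in all courses while its other probe sits between 8.30 and 9.12. For CXCL3 both probes are lower in the gefitinib courses.

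CXCL6, CCL20 and CCL2 gave no expression that the arrays could measure. The CXCL6 probe was well above background on 1 array, untreated PC9 at 6 h, with a log2 intensity of 7.12, and its course medians lay between 2.05 and 2.12. CCL20 had course medians between 2.35 and 2.49 and a highest value of 4.07 on 1 untreated PC9 array at 19 h that was not well above background. CCL2 had course medians between 2.17 and 2.37 and a highest value of 2.97. These 3 genes were therefore not tested in any comparison, and with 1 probe each their values say only that no signal stood above background.

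Few chemokine receptors passed the mark for testing. Of the 8 receptors listed 3 were tested, and CXCR1, CXCR2, CCR6 and ACKR1 were not. ACKR3, a scavenging receptor, rose with gefitinib by 1.83 in PC9 (limma adjusted p = 1.04e-05) and by 0.70 in PC9GRM2 (adjusted p = 5.2e-06). ACKR4, which takes up CC chemokines, rose by 0.73 and 0.27. In each line 17 gefitinib and 10 untreated arrays measured ACKR4 above background, so that its sizes depend on the background. This makes 2 of 3 called higher in each line. Of all tested genes 72.2% and 66.5% were called in either direction, and 48.2% and 48.9% of those calls were higher. The list median was 0.73 in PC9 against -0.03 over all tested genes, and 0.27 against -0.01 in PC9GRM2. Other chemokines went both ways. Of 12 tested, 5 were called higher and 3 lower in PC9 (median 0.26) and 4 and 3 in PC9GRM2 (median 0.05), shares near the 72.2% and 66.5% of all tested genes called in either direction. The mucosal chemokines CCL28 and CXCL17 rose with gefitinib in both lines. In PC9 they were well above background on 26 and 24 arrays with the drug and on 11 and 9 without, and in PC9GRM2 on 20 and 9 with it and on 4 and 0 without, so that the sizes depend on the background. CCL27, measured on 24 or more arrays of each of these courses, fell by 0.88 in PC9 and 0.73 in PC9GRM2. CXCL10, an interferon-induced ligand of CXCR3, was lower with EGF by -1.50 in PC9 (adjusted p = 2.7e-06), with 16 arrays above background against 24.

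Cytokines that induce or accompany these chemokines were mixed as well. Of 11 tested, 5 were called lower and 2 higher with gefitinib in PC9 (median -0.35) and 3 and 2 in PC9GRM2 (median 0.01), which is no more than the 72.2% and 66.5% of all tested genes called. CSF2, the granulocyte-macrophage growth factor, and LIF fell in both lines. CSF2 was well above background on 5 gefitinib and 14 untreated arrays of PC9 and on 4 and 26 of PC9GRM2, and LIF on 9 and 24 and on 12 and 24. IL1RN, the antagonist of the interleukin 1 receptor, rose by 1.84 and 1.14, and IL1R1, that receptor, by 0.97 and 1.01 (with 10 and 7 of 26 untreated arrays above background). With EGF in PC9 CSF2 rose by 0.72 and IL1B by 0.65, while TNF fell by 0.43 (limma adjusted p = 1.75e-08, 8.26e-09 and 0.000295).

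Of the 17 tested NF-κB subunits and targets 13 were called lower and 3 higher with gefitinib in PC9, with a median of -0.49 against -0.03 over all tested genes, and 8 and 5 in PC9GRM2, with -0.10 against -0.01. Over all tested genes 37.4% were lower in PC9 and 34.0% in PC9GRM2. TNFAIP3, a feedback inhibitor of NF-κB, fell by 1.83 and 1.57 and BIRC3 fell by 1.35 and 1.87, while CEBPD rose by 1.05 and 1.06 and BCL3 by 0.76 and 1.14. Of the 17 AP-1 and ERK feedback genes 15 were called lower and 2 higher in PC9 (median -2.82) and 10 and 2 in PC9GRM2 (median -0.73). DUSP6 fell by 6.81 and 2.16, and FOSL2 rose by 0.88 and 0.63. With EGF 8 of these 17 were called higher in PC9, beside 11.3% of all tested genes. In PC9GRM2 1 was, beside 4.16%, and 7 without the 0.5 h time point whose arrays went against their labels, beside 5.49%.

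Of the 9 genes that control the decay of AU-rich mRNAs 6 were called lower and 2 higher in PC9 (median -0.48) and 3 and 3 in PC9GRM2 (median -0.12), beside 37.4% of all tested genes lower in PC9 and 34.0% in PC9GRM2. ZFP36L2, a destabilizing protein, rose by 1.02 and 0.71, and HNRNPD and ELAVL1, which bind the same elements, fell by 1.47 and 0.87 in PC9 and by 0.84 and 0.49 in PC9GRM2. Of the 15 genes listed around the chemokine cluster on chromosome 4, 6 were tested. With gefitinib 5 were called lower and none higher in PC9 (median -1.70), and 4 lower and none higher in PC9GRM2 (median -1.01). These counts stand beside the same shares. They include AREG, an EGFR ligand measured on all 26 arrays of each course, which fell by 2.40 and 1.49. MTHFD2L fell in PC9, with 6 gefitinib arrays above background against 21, and EREG, another EGFR ligand, in PC9GRM2, with 1 against 10. With EGF AREG rose by 0.74 in PC9 (limma adjusted p = 8.53e-10).

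Over the arrays of a line, which share slides, scan days and the treatments, the 3 tested members ran together. In PC9 Pearson's r was 0.916 between CXCL1 and CXCL2, 0.918 between CXCL1 and CXCL8 and 0.905 between CXCL2 and CXCL8. In PC9GRM2 it was 0.906, 0.848 and 0.73. Among all other tested genes those most like CXCL1 in PC9 were STYK1 (r = 0.971), IL23A (0.969) and TP63 (0.964), and in PC9GRM2 STYK1 (0.945), SLC2A1 (0.94) and PIGH (0.929). Those most like CXCL2 were AOC3 (0.95), VDR (0.948) and STYK1 (0.944) in PC9 and SLC26A9 (0.888), STYK1 (0.887) and DCUN1D3 (0.878) in PC9GRM2. For CXCL8 they were CD274 (0.957), STYK1 (0.949) and PPP1R3F (0.949) in PC9 and GRPEL2 (0.911), CIB3 (0.903) and IL23A (0.902) in PC9GRM2. STYK1, a kinase-like membrane protein, was among the 3 nearest in 5 of these 6 lists. Each r is a description over the 26 time points of 4 treatments and includes the difference between the treatments.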

How the data were processed

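Each of the 208 samples was measured on 1 one-colour Agilent array. The authors deposited the scanner tables, made per the file headers with Feature Extraction 10.5.1.1, and the processed intensity of each feature was used. Intensities were quantile normalized over all arrays, floored at 1 and log2 transformed in R 4.3.3 with data.table (version 1.17.8). Control spots and spots marked as outliers (0.0793% of values) were left out. The deposited table of quantile normalized intensities, which the authors made, served as an alternative after log2 transformation. It gave the same median difference over all genes as the main setting in every comparison, so that it is no independent check. Of 41000 probes 24794 were given a symbol through the RefSeq accession, and the most variable probe stood for a gene.

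Limma 3.58.1 (lmFit and eBayes) was fitted to differences at matched time points, two-sided, with Benjamini-Hochberg adjustment over 13261 genes at 0.05. Time courses used natural splines with 4 degrees of freedom. The fits were tested on simulated data with noise independent between time points, which cannot show how the p-values fare where time points depend on each other. Groups came from the sample labels. The time points are paired because courses shared the sampling hours, and unpaired courses were an alternative. Alternatives covered normalization, background (normexp with offset 50, on the median signal since the tables hold no mean signal), probe choice, filter, floor, outlier and saturated spots, the methods' t-test, dependence of time points, scan day, windows, spline and, chosen after seeing the data, leaving out the 0.5 h or the 11 h time point.

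All 8 chemokines are named throughout. Of each context list the 2 called genes with the largest rise and fall were eligible to be named, and for likeness the 3 genes with the highest r. The members and lists were chosen with earlier results of these data known. Promoters are RefSeq's (GRCh38.p14), and that of CCL2 was not used here. The number of arrays and the scanner background limit the precision.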

Additional observations from a re-analysis of the deposited data

Results flagged for a closer look

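These are tested differences between lines or windows, for genes with at least 1 array well above background in each course compared. The gefitinib difference was smaller in PC9GRM2 than in PC9 by 0.78 for CXCL1. Between the early and the late window the gefitinib difference in PC9 changed by -4.08 for CXCL1 and -1.81 for CXCL2, and in PC9GRM2 it changed by -1.48 for CXCL1. CXCL2 was well above background on 9 gefitinib arrays of PC9, so that its size depends on the background.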

How the results depend on the processing

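Of the values of single chemokines 1192 kept their side of the threshold under the alternatives, 16 gained and 41 lost a call, and 2 turned. A value turned where its sign changed and it was called in the main setting or the alternative. Values called in neither count as kept even where their sign changed, as 16 did with normexp. The turned value was CXCL2 in PC9GRM2 minus PC9 with both agents, at 0.016 with normexp and 0.14 with the probe of highest mean. Of the counts of called members 366 stayed within 1.5 times and 51 did not. The deposited table, outlier and saturated spots, the methods' t-test, the spline and leaving out 0 h or 11 h moved no such count. The deposited table is quantile normalized as in the main setting, so that it could hardly move one. The cause of a change was not tested where the setting's own construction does not give it.

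The pairing of courses by time mattered most where differences were small. Unpaired (no replicate block), EGF called 0 of the tested members in PC9 and 0 in PC9GRM2 (1 each when paired), EGF by gefitinib, where the 1 member was CXCL8 in the background, 0 and 0 (1 each), the difference of the gefitinib differences 1 (2), and the lines under gefitinib 2 (1). With time points 3 h apart, fewer samples, the counts were 0 for EGF in PC9GRM2, 0 and 0 for EGF by gefitinib, 0 for the lines under gefitinib, 0 with both agents (2) and 1 for the difference of the gefitinib differences. With a difference of at least 1 required, they were 0 for EGF and for EGF by gefitinib in PC9GRM2, 0 for the lines under gefitinib and 0 with both agents, and 1 for the difference of the gefitinib differences. Inflated for autocorrelation, the lines gave 0 under gefitinib and 0 with both agents.

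With normexp the lines gave 5 called members untreated (3), 3 under gefitinib and 5 with EGF (3), the difference of the EGF differences gave 1 (0) and EGF by gefitinib in PC9GRM2 gave 0. EGF in PC9 then had 0 early (1), 0 in the middle (1) and 1 in late minus early (0), and gefitinib in PC9GRM2 had 1 early (2), 5 late (3) and 4 in late minus early (2). The probe of highest mean and the floor of 16 both gave 5 untreated, 3 under gefitinib and 5 with EGF between the lines, and the floor gave 1 for the difference of the EGF differences. The mean of all probes gave 3 for EGF in PC9, 5 between the untreated lines and 2 under gefitinib. With normexp, these probe choices and the floor of 16, what stands for a gene was set anew. Where 5 were called, more members were tested than the 3 of the main setting. Higher counts in these settings need not be gains among the same genes. Without the filter, where more members were tested, there were 2 for EGF in PC9, 2 for EGF by gefitinib in PC9 and 2 between the lines under gefitinib. With both agents the lines gave 1 at the 75th percentile and 1 with the scan day block, and that block left 1 change over time under gefitinib in PC9 (2), 0 in PC9GRM2 (2) and 0 with both agents in PC9GRM2 (1). An early window to 3 h gave 2 for EGF in the middle window of PC9. Without 0.5 h there was 1 for EGF early in PC9GRM2 (0) and 2 for time with both agents in PC9GRM2 (1).

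Over all genes the calls moved by over 1.5 times in every comparison. Requiring a difference of at least 1 gave the lowest count for gefitinib in PC9 (2479 against 9576) and PC9GRM2 (1289 against 8825), with EGF present (2869 against 10464 and 1814 against 9871), for EGF (21 against 3398 and 4 against 1203), between the lines (2082 to 2229 against 8585 to 9260) and for the difference of the gefitinib differences (475 against 4523). Time points 3 h apart gave 0 against 6 for EGF under gefitinib in PC9, 0 against 178 for the difference of the EGF differences and 0 against 1745 for EGF by gefitinib in PC9. Unpaired courses gave 0 against 412 for EGF under gefitinib in PC9GRM2 and 12 against 1341 for EGF by gefitinib there. Normexp raised the 178 to 334, and leaving out 0.5 h raised the 412 to 945 and the 1341 to 2079.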
